A study of Mus musculus with 5 samples.

Results

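The kidney 28 d after bilateral ischaemia-reperfusion injury (IRI) was compared with the kidney without injury in single nuclei, to describe which gene programmes still differed once serum markers of kidney function had come back close to the uninjured level. The nuclei compared were all barcodes with at least 200 detected genes in the GFP-positive library of each condition. They numbered 3299 at 28 d and 3508 without injury, 6807 of the 16359 nuclei that met this limit in the 5 libraries of the series. All mice were males, 10 to 12 weeks old at surgery, of the genotype Six2-TGC; Rosa26rtTA; pTRE-H2BeGFP, which ate food with 625 mg/kg doxycycline from a few days after birth, so that descendants of the Six2-expressing nephron progenitors hold a green fluorescent histone in their chromatin. In the injured group both renal pedicles were clamped under ketamine and xylazine and the kidneys were taken 28 d later. The animals of the other group are labelled as uninjured, and the study's design text speaks of sham surgery, so whether they were operated on is not known, and nor is their age at harvest, so that time since injury and age cannot be told apart. Nuclei were stained with DAPI, sorted for GFP and loaded on 10x Genomics droplets. How many mice gave each library is not stated. Each group had 1 library, so no test between the groups was possible, and every interval below covers counting error only, at 95%. Libraries of the same sort at 64 h and 96 h after IRI are given beside the 28 d values for reference, and all 3 are set against the same library without injury.

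The tubule of the kidney is most sensitive to lack of oxygen in the outer medulla, where the straight part of the proximal tubule and the thick ascending limb lie. Surviving cells lose differentiated functions, spread and divide, and most regain their transport programme within weeks. Some proximal tubule cells do not, and stay in a state known as failed or maladaptive repair, marked in the mouse by Vcam1, Havcr1, Ccl2 and genes of the NF-kB pathway, which is linked with inflammation and fibrosis.

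The creatinine in serum (mg/dL) stood at 0.122 without injury, reached 0.375 at 64 h and 0.312 at 96 h, and was 0.144 by 28 d. Urea nitrogen in the same order was 26.1, 37.0, 91.8 and 31.7 mg/dL. The 28 d library held 3767530 unique molecular identifiers (UMIs, counts of captured transcripts) and the library without injury 7153971. A nucleus had a median of 982 UMIs and 626 detected genes at 28 d, against 1793.5 UMIs and 992.5 genes without injury. Mitochondrial UMIs made up 0.0947% at 28 d and 0.0888% without injury, and the libraries shared 16 barcodes, within the 9 to 20 found for any pair of the 5 libraries.

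Proximal tubule (PT-like) nuclei, named like all classes from marker genes of their clusters, made up the same share of both libraries. There were 2155 at 28 d, 65.3% (exact binomial interval 63.7 to 66.9), and 2286 without injury, 65.2% (63.6 to 66.7). The 19 proximal tubule markers summed to 28011 CPM (UMIs of a gene per 1000000 UMIs of the nuclei summed) in these nuclei at 28 d and to 30460 CPM without injury. Larger differences in share lay in other classes and clusters, and in single clusters within the PT-like class, which are given below. A cluster led by Vcam1, Cd44, Cxcl10, Dock10 and Kcnip4 held 309 nuclei at 28 d, 9.37% (8.39 to 10.4), and 76 without injury, 2.17% (1.71 to 2.70), while the 64 h and 96 h libraries gave it 92 and 71 nuclei. Its best marker score was that of parietal epithelium, 2.74, against 0.81 for the proximal tubule, and the parietal marker Ncam1 was a leading gene. At resolution 2.0 a parietal epithelium-like cluster (16 nuclei at 28 d, 25 without injury) lay apart from a Vcam1-led one (302 and 62). The part of parietal cells in the Vcam1-led cluster was not tested. Macrophage and dendritic-like nuclei numbered 34 at 28 d and 2 without injury. Thick ascending limb (TAL-like) nuclei were 8.55% at 28 d and 9.44% without injury, but a cluster whose leading genes were Lcn2 and Clu, both known from injured tubules, supplied 187 of the 282 nuclei at 28 d and 17 of the 331 without injury. A cluster led by Slc12a1, Tenm2, Sgcz and Egf, with 93 nuclei at 28 d and 119 without injury, was deep and of mixed markers. It was left unnamed and is not in the TAL-like class. Unnamed nuclei, the Vcam1-led cluster among them, made up 12.8% at 28 d and 5.90% without injury. Thin limb-like nuclei made up 4.06% at 28 d and 8.18% without injury, nuclei of the distal convoluted and connecting tubule (DCT and CNT-like) 3.46% and 5.73%, principal-like nuclei of the collecting duct were 2 and 42 in number, and urothelium-like nuclei 1 and 12. The part of these differing shares in the results below was not tested. The genes of the clusters themselves differed between the libraries, so cluster sizes are given as a description of what was summed.

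**Figure D1:**
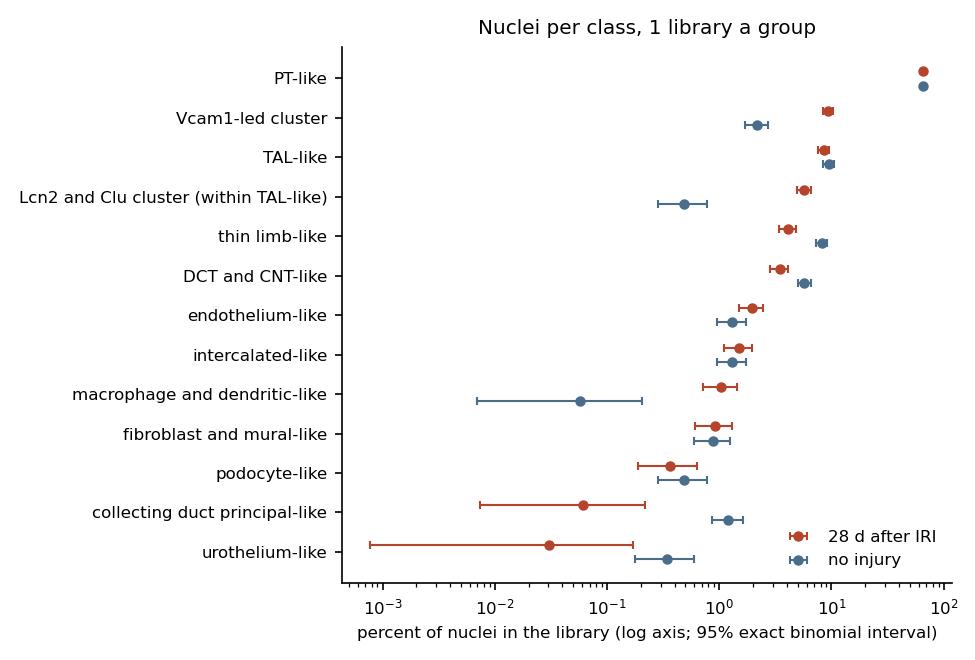
Share of nuclei in each marker-named class, in percent of the nuclei of the library, with exact binomial 95% intervals, for 28 d after IRI and for no injury. The PT-like share is 65.3% at 28 d and 65.2% without injury, whereas the Vcam1-led cluster holds 9.37% at 28 d and 2.17% without injury.

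In PT-like nuclei, 9454 genes had at least 50 UMIs over both libraries. Of these, 1037 were at least 1.5-fold higher at 28 d (11%) and 640 at least 1.5-fold lower (6.77%), with ratios taken on CPM plus 1. The median of all genes lay at 0.06 on the log2 scale, and it was 0.13 at 64 h and 0.22 at 96 h. Scaling by trimmed means of M-values (TMM) in place of total UMIs moved every PT-like log2 ratio by -0.11 and turned the split to 700 higher and 942 lower genes, so that 42.6% of the calls were higher, against 61.8% on CPM. Differences near 1.5-fold therefore depend on the scaling, and of the genes named below Tpi1, Tkt, Rpia, Atp5a1 and Mme were at least 1.5-fold higher on CPM and within 1.5-fold under TMM. Among genes with at least 100 UMIs, the interval of the ratio lay wholly above 1.5-fold for 215 of 7493 (2.87%) and wholly below for 95 (1.27%). The shares differed with gene length. Of the 738 genes of up to 5 kb, with a median log2 ratio of 0.13, 17.6% were at least 1.5-fold higher and 10.6% lower, of the 1586 genes of 50 to 100 kb 6.18% and 5.30%, and of the 1626 genes over 100 kb, with a median of 0.03, 11.7% and 6.03%. The PT-like nuclei came from 7 clusters in unequal parts. The cluster led by Gm26870 and Hdc gave 645 nuclei at 28 d and 236 without injury, and that led by Slco1a1 gave 427 and 787. The cluster led by Fgg, with C3 and C4b among its leading genes, gave 148 at 28 d and 13 without injury. It held 1857 of the 3202 nuclei at 96 h. Ratios with the cluster mix held at that without injury are therefore given where they differ.

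The gene furthest above the uninjured level in PT-like nuclei was Mid1, which encodes a microtubule-binding E3 ubiquitin ligase and lies on chromosome X at 169685199 to 170005736 (GRCm38). Mid1 had 3471 UMIs or 1467 CPM at 28 d, against 615 UMIs or 127 CPM without injury, a ratio of 11.5 (10.6 to 12.6). The higher level was not confined to the proximal tubule. The ratio was above 1 in 7 of 7 PT-like clusters, 7.27 in TAL-like, 4.12 in thin limb-like and 8.82 in DCT and CNT-like nuclei, and 20.1 in the Vcam1-led cluster. The level of Mid1 in PT-like nuclei was 127 CPM without injury, 2275 CPM at 64 h, 123 CPM at 96 h and 1467 CPM at 28 d. With 1 library a time, differences between times and differences between animals or libraries cannot be told apart. With each nucleus thinned to 600 UMIs, 54.1% of PT-like nuclei held a Mid1 UMI at 28 d and 6.87% without injury, after 268 shallower PT-like nuclei of the 28 d library and 0 of the other were left out, and without thinning 69.5% and 20.3% did.

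The other genes with the highest ratios in PT-like nuclei were of mixed function. Akr1c19, an aldo-keto reductase, had 75.7 CPM at 28 d and 14.1 CPM without injury, a ratio of 5.38 (4.05 to 7.23). Abcb4, known from bile as a phospholipid flippase, had 44.4 CPM at 28 d and 8.27 CPM without injury, a ratio of 5.37. The GABA-A receptor subunit gene Gabrb1 had 106 CPM at 28 d and 22.9 CPM without injury, a ratio of 4.61 (3.67 to 5.81). At 96 h these 3 genes stood at 17.9, 43.7 and 164 CPM. Six2, the transcription factor that keeps nephron progenitors undifferentiated and whose regulatory sequence drives the transgene of these mice, had 194 UMIs or 82.0 CPM at 28 d, against 99 UMIs or 20.5 CPM without injury. The ratio of Six2 was 4.01 (3.13 to 5.16), and 3.07 with the cluster mix held. Six2 stood at 20.5 CPM without injury, 92.3 CPM at 64 h, 172 CPM at 96 h and 82.0 CPM at 28 d, and at a ratio of 5.66 in nuclei that were neither PT-like nor of an injury-led cluster. Whether these UMIs came from the gene or from the transgene was not analysed here. Scand1, Shcbp1l, Acot9, a mitochondrial acyl-CoA thioesterase gene, Ak7, an adenylate kinase gene, Arrdc2, Sgf29 of the SAGA chromatin complex, the ribosomal protein gene Rpl38, Klhl1, Zmym1 and 4930556J24Rik completed the 15, with ratios of 3.16 to 5.22. Of the 15 genes, 13 were also at least 1.5-fold higher in nuclei outside the PT-like class and the injury-led clusters. There 1004 of 8046 genes were (12.5%). The exceptions were Acot9 and Arrdc2. That sum, here and below, held 929331 UMIs at 28 d and 2141728 without injury. It kept the Lcn2 and Clu-led cluster, with 127453 and 14677 of these UMIs, and the deep unnamed cluster of mixed markers. The part of these clusters in its ratios was not tested.

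Heat shock and unfolded protein response genes, which refold proteins in the cytosol and the endoplasmic reticulum (ER), had the highest median of the 47 gene lists in PT-like nuclei. At 28 d, 7 of its 13 measured genes stood at least 1.5-fold above the uninjured level, against 11% of all PT-like genes, and 0 below it. The median log2 ratio of the 13 was 0.72, against 0.06 over all genes. Hsph1, a co-chaperone of Hsp70, had 542 UMIs or 229 CPM at 28 d, against 440 UMIs or 90.9 CPM without injury, a ratio of 2.52 (2.22 to 2.86). Ddit3, the ER stress transcription factor CHOP, had 88.3 CPM at 28 d and 40.7 CPM without injury, a ratio of 2.17 (1.78 to 2.65). Atf4, which acts upstream of Ddit3, had 123 CPM at 28 d and 62.6 CPM without injury, a ratio of 1.96 (1.67 to 2.31). These 3 genes belong to different arms of the response, the heat shock response of the cytosol and the stress pathway of the ER. The ER chaperones Hsp90b1, with 141 CPM at 28 d and 70.9 CPM without injury, and Calr, with 98.5 and 50.6 CPM, had ratios of 1.99 (1.71 to 2.32) and 1.94 (1.62 to 2.34). Dnajb1 and Pdia4 completed the 7, at 2.01 and 1.71. Other chaperones differed less, with ratios of 1.44 for Hspa5, the main ER chaperone BiP, 1.37 for Hsp90ab1 and 1.20 for Hspa8, and Herpud1, a target of the unfolded protein response, was at 0.807.

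The promoters of 3 ER chaperones hold a shared element, and they are shown here because Hsp90b1 and Calr lie among the higher genes and Hspa5 does not. The promoter of Pdia4, an ER folding enzyme among the higher genes, had no match. Each sequence gives the 250 bases upstream of the start site from RefSeq on GRCm38.p6, 5′ to 3′ on the gene's strand, with matches to the ER stress response element (CCAAT, any 9 bases and CCACG, on either strand) in capitals. They lie at chr10:86705445-86705694, chr8:84846932-84847181 and chr2:34771840-34772089, on the minus, minus and plus strand.
Hsp90b1: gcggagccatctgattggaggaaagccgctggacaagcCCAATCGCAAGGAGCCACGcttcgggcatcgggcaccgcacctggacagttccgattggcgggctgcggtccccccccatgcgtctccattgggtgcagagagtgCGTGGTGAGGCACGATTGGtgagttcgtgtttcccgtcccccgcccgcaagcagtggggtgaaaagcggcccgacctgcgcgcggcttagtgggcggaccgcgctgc
Calr: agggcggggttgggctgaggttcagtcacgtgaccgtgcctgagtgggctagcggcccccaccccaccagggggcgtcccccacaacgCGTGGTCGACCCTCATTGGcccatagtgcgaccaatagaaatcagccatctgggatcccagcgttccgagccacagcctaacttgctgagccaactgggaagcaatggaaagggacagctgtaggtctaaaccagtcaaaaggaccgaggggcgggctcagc
Hspa5: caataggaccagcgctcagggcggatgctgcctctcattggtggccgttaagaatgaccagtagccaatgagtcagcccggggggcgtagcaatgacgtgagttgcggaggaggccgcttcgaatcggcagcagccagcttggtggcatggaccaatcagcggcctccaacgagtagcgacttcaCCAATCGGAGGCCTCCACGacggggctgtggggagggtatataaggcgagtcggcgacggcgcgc
This element was found in the 300-base promoters of 3 of the 10 measured list genes that had a promoter sequence and in 0.119% of 32851 RefSeq promoters. The element contains the shorter CCAAT box, which 9 of the 10 genes and 37.4% of all promoters held. A heat shock element of 3 units (GAA, any 2 bases, TTC, any 2 bases and GAA, on either strand) was found in the Hsph1 promoter, as TTCTGGAAAGTTC on the other strand, and in 0.603% of all promoters. The amino acid response core TGATGNAA was found in Herpud1 and in 3.97% of all promoters. These matches describe letters in a window, and Hspa5, within 1.5-fold, holds the same element as the genes past it.

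The heat shock difference was also found outside PT-like nuclei, but not for every gene or class. Hsph1 was above 1 in 7 of 7 PT-like clusters, at ratios of 1.36 to 2.83, at 2.96 in the Vcam1-led cluster and at 1.67 outside PT-like and injury-led nuclei, while in TAL-like nuclei it was at 1.23 (0.695 to 2.13). Of the 5 genes of the list measured in TAL-like nuclei 1 was at least 1.5-fold higher, against 13.0% of all genes there, and 0 were lower. That gene was Hsp90ab1, at 1.82 (1.12 to 2.95), and the median of the 5 was 0.29, against 0.03 over all genes. Outside PT-like and injury-led nuclei Ddit3 stood at 1.97, Atf4 at 1.80, Hsp90b1 at 1.74 and Calr at 1.22. This sum also holds endothelial, fibroblast and macrophage nuclei, the Lcn2 and Clu-led cluster and the deep unnamed cluster. Over all nuclei 9 of the 15 measured genes of the list passed 1.5-fold upwards and the median was 0.80. The members had different histories. Hsph1 had 90.9 CPM without injury, 57.4 CPM at 64 h, 71.8 CPM at 96 h and 229 CPM at 28 d, so it was higher at 28 d than at any other time, whereas Ddit3, Atf4 and Calr were highest at 96 h, at 182, 195 and 246 CPM. Measured members of the list had a median length of 5.58 kb, and the list's median log2 ratio less that of all genes of the same length class was 0.61. With nuclei thinned to 600 UMIs, 12.9% of PT-like nuclei held an Hsph1 UMI at 28 d and 5.25% without injury, and 20.6% and 16.6% did unthinned, at median depths of 981 and 1928 UMIs.

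**Figure D2:**
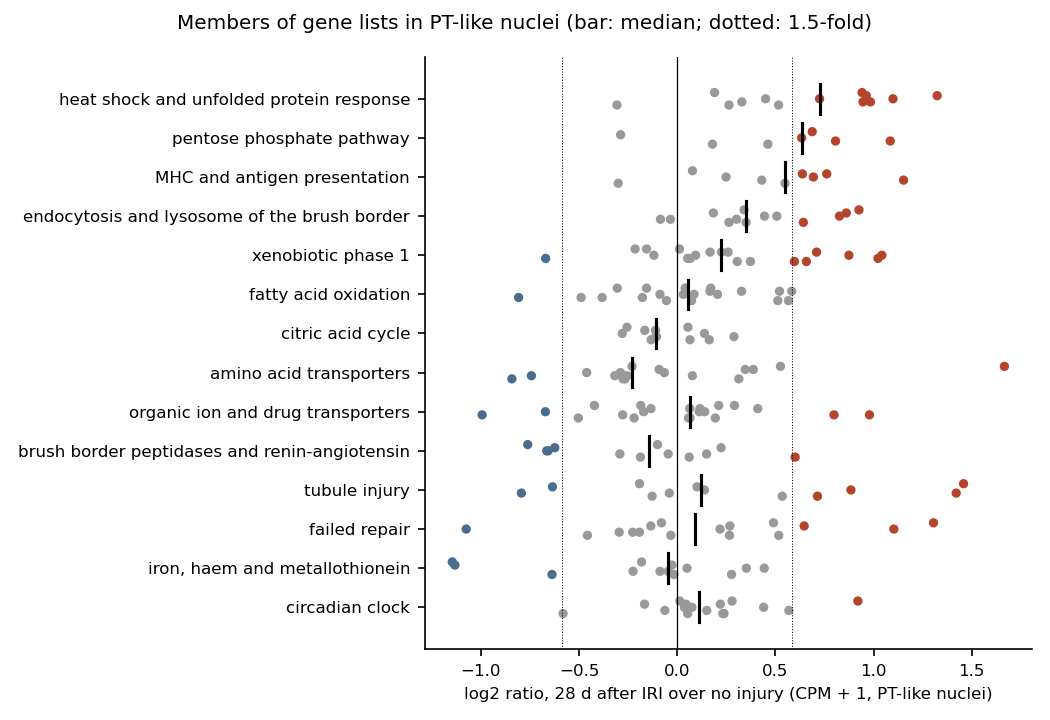
Log2 ratio of 28 d over no injury in PT-like nuclei for each measured member (points) of 14 gene lists, with the list median as a black bar and 1.5-fold as dotted lines. The heat shock and unfolded protein response list has the highest median, 0.72, and the amino acid transporters the lowest of those drawn, -0.23.

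Ferritin went the other way. Fth1, the heavy chain of the iron store ferritin, had 704 CPM in PT-like nuclei at 28 d and 1543 CPM without injury, a ratio of 0.456 (0.432 to 0.481). Ftl1, the light chain, had 464 CPM at 28 d and 1027 CPM without injury, a ratio of 0.452 (0.423 to 0.482). Ncoa4, the receptor that brings ferritin to the lysosome, had 24.1 CPM at 28 d and 38.0 CPM without injury, a ratio of 0.633 (0.462 to 0.857). These were the 3 of 13 measured iron, haem and metallothionein genes that were at least 1.5-fold lower, 0 were higher, and the list's median was -0.05. Over all PT-like genes 6.77% were lower and 11% higher. The importers Tfrc and Slc39a14 stood at 0.988 and 0.981, the exporter Slc40a1 at 0.852 and the haem enzyme Hmox1 at 1.04. Beside the ferritin genes and Ncoa4, the measured genes of the list were within 1.5-fold. Early after injury ferritin had been far higher, since Fth1 had 1543 CPM without injury, 4219 CPM at 64 h, 3284 CPM at 96 h and 704 CPM at 28 d, and Ftl1 followed the same order with 1027, 2027, 1863 and 464 CPM. The lower Fth1 was found in every one of 7 PT-like clusters and in other segments, at 0.469 in TAL-like, 0.473 in DCT and CNT-like, 0.350 in Vcam1-led and 0.508 in all nuclei that were neither PT-like nor injury-led. Thinned to 600 UMIs, 27.3% of PT-like nuclei held an Fth1 UMI at 28 d and 53.6% without injury, and 37.0% and 83.7% did unthinned.

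The study's title names glucose metabolism of the proximal tubule as its question. Genes that make glucose differed one by one at 28 d around a list median near that of all genes, while the lists of glycolysis and the pentose phosphate pathway, which use it, had medians above it. The median of 7 measured gluconeogenesis genes was -0.04, against -0.29 at 64 h and -0.38 at 96 h. At 28 d 1 of the 7 was 1.5-fold or more above and 2 below, against 11% and 6.77% of all PT-like genes. Fbp1, fructose-1,6-bisphosphatase, had 247 CPM at 28 d and 424 CPM without injury, a ratio of 0.583 (0.530 to 0.639), and had been at 347 CPM at 64 h and 225 CPM at 96 h. Slc2a2, the basolateral glucose exit carrier GLUT2, had 94.7 CPM at 28 d and 168 CPM without injury, a ratio of 0.565 (0.485 to 0.656). The cytosolic malate dehydrogenase Mdh1 was at 0.644. Against these, Slc37a4, which carries glucose-6-phosphate into the ER, had 154 CPM at 28 d and 80.6 CPM without injury, a ratio of 1.91 (1.65 to 2.21). The entry enzymes Pck1, with 361 CPM at 28 d and 419 CPM without injury, and G6pc, the final enzyme, with 95.9 and 91.2 CPM, stood at 0.863 and 1.05.

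Glycolysis had a median of 0.33, after 0.78 at 64 h and 1.36 at 96 h. Of its 11 measured genes 3 were at least 1.5-fold higher, against 11% of all PT-like genes, and 0 lower. Gpi1, which interconverts glucose-6-phosphate and fructose-6-phosphate, had 127 CPM at 28 d and 67.0 CPM without injury, a ratio of 1.90 (1.62 to 2.23). Pfkp, a phosphofructokinase, stood at 1.72 (1.26 to 2.34) and Tpi1, triosephosphate isomerase, at 1.54 (1.32 to 1.80). Under TMM 2 of the 11 passed 1.5-fold upwards, against 7.40% of all PT-like genes. The pentose phosphate pathway, which yields NADPH and ribose from glucose-6-phosphate, had the second highest median of the lists, 0.63, and 0.52 under TMM. Of its 7 measured genes 4 were at least 1.5-fold higher on CPM, against 11% of all PT-like genes, and 2 under TMM, against 7.40%. H6pd, the ER form of its entry enzyme, had 111 CPM at 28 d and 51.9 CPM without injury, a ratio of 2.14 (1.80 to 2.56). Pgd was at 1.77, Tkt at 1.62 and Rpia at 1.58, whereas G6pdx, the cytosolic entry enzyme, had under 50 UMIs. Transketolase, Tkt, had 63.7 CPM without injury, 189 CPM at 64 h, 290.3 CPM at 96 h and 103 CPM at 28 d, so it lay nearer to the uninjured level at 28 d than at either earlier time.

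Fat metabolism as a list lay at the level of all genes, with a median of 0.06 over 20 measured fatty acid oxidation genes. Of these 0 were higher and 1 lower by 1.5-fold, against 11% and 6.77% of all PT-like genes. That gene was Ehhadh, the bifunctional enzyme of peroxisomal oxidation, with 232 CPM at 28 d and 408 CPM without injury, a ratio of 0.570 (0.518 to 0.627), after 103 CPM at 64 h and 98.3 CPM at 96 h. Lpl, lipoprotein lipase, which frees fatty acids from lipoproteins, differed most. Lpl had 79 UMIs or 33.4 CPM at 28 d, against 982 UMIs or 203 CPM without injury, a ratio of 0.165 (0.129 to 0.207), and 3.76 CPM at 64 h and 2.34 CPM at 96 h. Lpl is among the leading genes of the PT-like cluster that carries Cyp7b1, a marker of the straight S3 part. That cluster had 182 nuclei at 28 d and 219 without injury, and held 42 Lpl UMIs at 28 d and 676 without injury. With the cluster mix held at that without injury the ratio of Lpl was 0.192. Thinned to 600 UMIs, an Lpl UMI was found in 1.38% of PT-like nuclei at 28 d and in 7.57% without injury, and in DCT and CNT-like nuclei in 0 of 99 at 28 d, which at this depth allows a share with a UMI of up to 3.66% (exact binomial), and in 6.47% of 201 without injury. Unthinned, the PT-like shares were 2.88% and 15.9% and those of DCT and CNT-like nuclei 5.26% and 15.4%, so the unthinned shares in PT-like nuclei were at or near those in another segment and are not read as expression. What part free RNA and doublets, which were not removed, have in them was not tested. By UMIs the S3-led cluster held 676 of the 982 of PT-like nuclei without injury. The 17 measured nuclear-encoded respiratory chain genes had a median of 0.22, after medians of 1.02 at 64 h and 0.80 at 96 h. Of the 17, 3 were higher, against 11% of all PT-like genes, and 0 lower. The 3 were Cox7c at 1.84 (1.57 to 2.15), Cox6c at 1.83 (1.57 to 2.13) and Atp5a1 at 1.52.

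Transport and digestive functions of the brush border differed in single members. Among 17 amino acid transporters, with a median of -0.23, Slc7a7, the basolateral exit of cationic amino acids, had 285 CPM at 28 d and 478 CPM without injury, a ratio of 0.597 (0.547 to 0.651), which was 0.708 with the cluster mix held. The GABA and taurine carrier Slc6a13 stood at 0.551. Among 12 brush border peptidases 4 were at least 1.5-fold lower, against 6.77% of all PT-like genes, and 1 higher, against 11%. Dpp4 had 176 CPM at 28 d and 299 CPM without injury, a ratio of 0.589 (0.527 to 0.657), Anpep stood at 0.617, Mep1b at 0.623 and Enpep, which cleaves angiotensin II, at 0.643, while Mme, neprilysin, stood at 1.54. Car4, a membrane carbonic anhydrase of bicarbonate reabsorption, had 14.8 CPM at 28 d and 37.6 CPM without injury, a ratio of 0.393 (0.266 to 0.567).

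Of 21 measured organic ion and drug transporters 2 were at least 1.5-fold higher and 2 lower, against 11% and 6.77% of all PT-like genes. The list's median of 0.06 was that of all genes. Slc22a8, the basolateral organic anion carrier OAT3, had 72.3 CPM at 28 d and 36.2 CPM without injury, a ratio of 2.00 (1.61 to 2.48), although it had been at 11.8 CPM at 64 h. Abcc2, an apical drug export pump, had 623 CPM at 28 d and 358 CPM without injury, a ratio of 1.74 (1.62 to 1.87), after 1376 CPM at 64 h and 996 CPM at 96 h. Thinned to 600 UMIs, Abcc2 was found in 30.5% of PT-like nuclei at 28 d and 20.0% without injury, but also in 20.2% and 5.97% of DCT and CNT-like nuclei, and unthinned in 43.9% and 47.7% of PT-like and 34.2% and 21.9% of DCT and CNT-like nuclei. Slc5a12, a lactate carrier of the early proximal tubule, set beside it, was found in 45.9% and 49.2% of thinned PT-like nuclei and in 23.2% and 20.9% of DCT and CNT-like nuclei, so RNA of the proximal tubule was present in other nuclei of both libraries. Of 13 endocytosis and lysosome genes 4 were higher, against 11% of all PT-like genes, and 0 lower, with Amn, which anchors cubilin, at 438 CPM at 28 d and 247 CPM without injury, a ratio of 1.78 (1.63 to 1.93), and the cathepsins Ctsl and Ctsd at 1.93 and 1.83. The uptake receptors Lrp2, megalin, and Cubn, cubilin, stood at 1.28 (1.23 to 1.32) and 0.976.

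Of 19 xenobiotic phase 1 genes 6 were higher by 1.5-fold, against 11% of all PT-like genes, and 1 lower, against 6.77%, and under TMM 4 were higher. Cyp4b1, a cytochrome P450 that is higher in male mouse kidney, had 946 CPM at 28 d and 459 CPM without injury, a ratio of 2.06 (1.94 to 2.19). It had been at 419 CPM at 64 h and 429 CPM at 96 h, so it stood above the uninjured level at 28 d only among these times. Fmo5, a monooxygenase, stood at 1.84, Cyp2a4 at 2.11 and Cyp2d9 at 0.624. The male-biased list as a whole had returned to a median of 0.07, after -0.64 at 64 h and -0.98 at 96 h, and its best known member Kap had 1022 CPM at 28 d and 1100.1 CPM without injury, after 261 CPM at 64 h and 255 CPM at 96 h. Gclc, the rate-limiting enzyme of glutathione synthesis, had 789.5 CPM at 28 d and 1304 CPM without injury, a ratio of 0.605 (0.575 to 0.638).

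The lowest ratios in PT-like nuclei belonged to Kcnj2, the inward rectifier potassium channel Kir2.1, with 9 UMIs or 3.80 CPM at 28 d, against 190 UMIs or 39.3 CPM without injury. Its ratio was 0.0969 (0.0436 to 0.188). Kcnj2 was also at 18.3 CPM at 64 h and 2.34 CPM at 96 h, and its ratio over all nuclei was 0.0866 (0.0442 to 0.154), with 12 UMIs at 28 d and 263 without injury. Akr1b3, aldose reductase, which makes the osmolyte sorbitol, had 9 UMIs at 28 d and 100 without injury, a ratio of 0.184 (0.0818 to 0.364), and Aqp2, the water channel of collecting duct principal cells, had 15 UMIs at 28 d and 112 without injury, a ratio of 0.274 (0.148 to 0.471). Principal-like nuclei numbered 2 at 28 d and 42 without injury, and over all nuclei Akr1b3 had 17 UMIs at 28 d and 440 without injury, of which thin limb-like nuclei held 1 and 206. What part of these PT-like values is free RNA of inner kidney cells was not tested. Kcnq1, a potassium channel subunit that recycles potassium across the apical membrane, had 16.9 CPM at 28 d and 68.8 CPM without injury, a ratio of 0.246 (0.172 to 0.342), and stood at 0.856 in nuclei outside PT-like and injury-led clusters. Soat1, which esterifies cholesterol, was at 0.276, the protease gene Fam111a at 0.294, the scaffold gene Lin7a at 0.216 and the homeobox gene Pbx4 at 0.330. Gm26632, Pcdh17, Mettl20, Tenm4, Tubgcp5 and A330032B11Rik lay between 0.261 and 0.325. Of the 15 lowest genes, 9 were also at least 1.5-fold lower in nuclei outside the PT-like class and the injury-led clusters. There 610 of 8046 genes were (7.58%). The 6 that were not were Kcnq1, Pcdh17, Mettl20, Tenm4, Tubgcp5 and A330032B11Rik. In the S3-led cluster alone Tenm4, with 2 UMIs at 28 d and 1 without injury, Pcdh17 and A330032B11Rik were higher at 28 d.

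Clusters with 3 or more injury genes among their 10 leading genes, the Vcam1-led one included, were kept out of the PT-like class, so the medians of injury and failed repair genes in PT-like nuclei are partly set by that rule. With these clusters added the tubule injury median at 28 d was 0.49 and the failed repair median 0.85. Without them the tubule injury list had a median of 0.12 at 28 d, after 1.89 at 64 h and 2.34 at 96 h. Of its 12 measured genes 4 were at least 1.5-fold higher and 2 lower, against 11% and 6.77% of all PT-like genes. The Fgg-led cluster, with 148 nuclei at 28 d and 13 without injury, was part of the PT-like sum. Spp1, osteopontin, which binds crystals and recruits leukocytes, had 82.9 CPM without injury, 750 CPM at 64 h, 804 CPM at 96 h and 154 CPM at 28 d, and its ratio at 28 d was 1.86 (1.61 to 2.14). Clu, a secreted chaperone, had 38 UMIs at 28 d and 26 without injury, a ratio of 2.99 (1.77 to 5.13). Havcr1, the shed injury marker KIM-1, had 21 and 13 UMIs, under the limit of 50, with a ratio of 3.30 (1.58 to 7.18), and Lcn2 had 1 and 0 UMIs. The failed repair list of PT-like nuclei stood at 0.09, with 3 of 16 genes higher and 1 lower, against the same 11% and 6.77%. Il34, a ligand of the macrophage receptor Csf1r, had 194 CPM at 28 d and 77.9 CPM without injury, a ratio of 2.49 (2.17 to 2.86), and had been at 117 CPM at 64 h and 389 CPM at 96 h. Cp, ceruloplasmin, stood at 2.23. Itgb6, the integrin subunit that activates TGF-beta, had 335 CPM at 28 d and 707 CPM without injury, a ratio of 0.474 (0.438 to 0.512). Among immune genes, H2-K1, a class I major histocompatibility gene, had 91.3 CPM at 28 d and 40.5 CPM without injury, a ratio of 2.25 (1.85 to 2.75), and the complement gene C4b stood at 2.49 (1.92 to 3.24). The antigen presentation list had a median of 0.55, after 1.56 at 96 h. Of its 9 genes 4 were higher, against 11% of all PT-like genes, and 0 lower. In the same PT-like nuclei the macrophage and dendritic markers summed to 98.9 CPM at 28 d and 70.3 CPM without injury, with 7 of 9 markers higher, and the endothelial markers to 90.9 and 47.3 CPM, and their part in these differences was not tested. Further single genes above 1.5-fold were Actb, at 120.5 CPM at 28 d and 48.8 CPM without injury, the Hippo pathway targets Cyr61 at 2.09 and Amotl2 at 1.93, and the stress gene Sesn2 at 2.00.

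**Figure D3:**
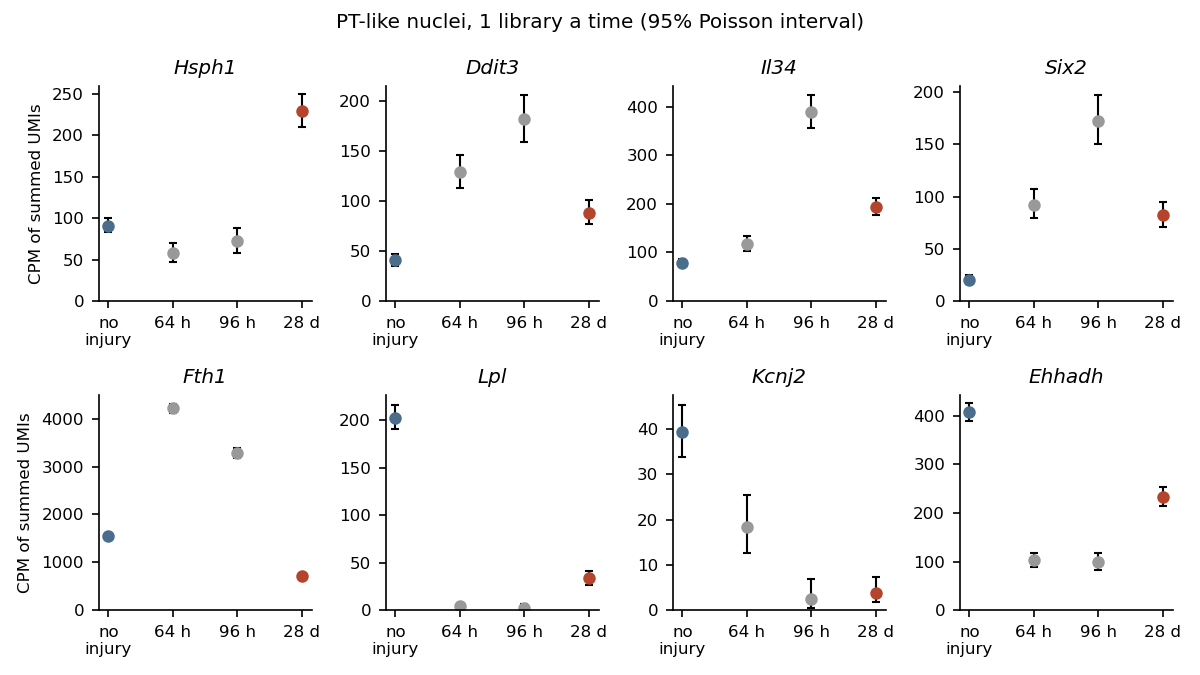
Level in PT-like nuclei (CPM) of 8 genes in uninjured kidney and 64 h, 96 h and 28 d after IRI, with exact Poisson 95% intervals, 1 library a time. Fth1 goes through 4219 CPM at 64 h to 704 CPM at 28 d, below its 1543 CPM without injury, while Hsph1 is highest at 28 d with 229 CPM.

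Summed over all nuclei, 11141 genes were measured, of which 1252 were at least 1.5-fold higher at 28 d (11.2%) and 812 lower (7.29%). TMM scaling shifted these log2 ratios by -0.11 and gave 895 higher and 1121 lower genes, 44.4% of the calls higher, against 60.7%. In such whole-library sums more cells of a type and more RNA per cell cannot be told apart, so the classes of nuclei that held the UMIs are given for the genes below where a class held many of them. Inflammatory and repair lists lay well above all genes here. Antigen presentation had a median of 1.04, with 9 of 14 genes higher, the NF-kB pathway 0.66, with 9 of 15, failed repair 0.60, with 11 of 21 higher and 1 lower, chemokines and cytokines 0.50, with 6 of 13, and the profibrotic list 0.48, with 8 of 16 higher and 1 lower. Under TMM, in the same order, 9, 6, 9, 6 and 6 genes were higher, against 8.03% of all genes. Those lower were 0, 0, 1, 1 and 1, against 10.1%. Macrophage and dendritic markers summed to 121 CPM at 28 d and 70.2 CPM without injury, with 8 of 9 markers higher, and endothelial markers to 183 and 101 CPM, with 9 of 9 higher.

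Cd44, a hyaluronan receptor of injured epithelium and leukocytes, had 130 UMIs or 34.5 CPM at 28 d, against 21 UMIs or 2.94 CPM without injury, a ratio of 11.8 (7.38 to 19.6). Ccl2, the monocyte attractant, had 63 UMIs at 28 d and 11 without injury, a ratio of 10.9 (5.68 to 22.9). Edn1, the vasoconstrictor endothelin-1, had 94 UMIs at 28 d and 16 without injury, a ratio of 11.2 (6.52 to 20.3). All 3 had most of their 28 d UMIs in the Vcam1-led cluster, 95 of 130 for Cd44, 40 of 63 for Ccl2 and 59 of 94 for Edn1, against 9 of 21, 1 of 11 and 3 of 16 without injury. Vcam1 itself, an adhesion receptor for leukocytes, had 134 UMIs at 28 d and 61 without injury, a ratio of 4.17 (3.06 to 5.74), Havcr1 had 96 and 55, a ratio of 3.31 (2.36 to 4.70), and Csf1, the macrophage growth factor, 117 and 62, a ratio of 3.58. The nuclei of the cluster were grouped across libraries by genes that include Vcam1 and Cd44, so levels of such genes within it are partly set by the clustering and are given as a description. In CPM of the Vcam1-led cluster alone, Vcam1 had 208 at 28 d and 204 without injury, Havcr1 139 and 147, Csf1 162 and 176, and Cp 543 and 660, whereas Cd44 had 217 and 63.2, Ccl2 91.3 and 7.02 and Edn1 135 and 21.1. Thinned to 600 UMIs, a Vcam1 UMI was found in 9.51% of the nuclei of that cluster at 28 d and 9.21% without injury, and in 1.44% and 0.371% of all nuclei. Unthinned, the shares were 16.5% and 18.4% in the cluster, 2.64% and 0.941% over all nuclei and 0.877% and 0.498% in DCT and CNT-like nuclei, at cluster median depths of 1232 and 1649.5 UMIs. When the Vcam1-led and the Lcn2 and Clu-led clusters and the macrophage and dendritic-like nuclei were left out, the median of the failed repair list over the remaining nuclei was -0.0011, against 0.60 with them, and genes of this list were among those by which the clusters were formed.

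The antigen presentation genes were H2-K1 at 2.51, the class II genes H2-Ab1, H2-Aa and H2-Eb1 at 2.63, 2.70 and 3.72 and the peptide transporters Tap1 and Tap2 at 2.46 and 2.38. Of the class II UMIs, macrophage and dendritic-like nuclei, which numbered 34 at 28 d and 2 without injury, held 14 of 111 at 28 d and 0 of 80 without injury for H2-Ab1, 16 of 54 and 3 of 38 for H2-Aa, and 5 of 47 and 2 of 24 for H2-Eb1. PT-like nuclei held 50 and 64 of those of H2-Ab1, 19 and 22 of H2-Aa and 27 and 16 of H2-Eb1. The Vcam1-led cluster held 103 of 470 H2-K1 UMIs at 28 d and 21 of 356 without injury, 7 of 35 and 0 of 27 for Tap1 and 39 of 108 and 5 of 86 for Tap2. The complement gene C3 stood at 4.11, the Hippo targets Ctgf and Cyr61 at 3.93 and 2.98, the chemokines Cxcl2 and Cxcl10, with 42 and 70 UMIs at 28 d and 17 and 50 without injury, at 4.69 and 2.66, and the NF-kB genes Relb, Birc3 and Nfkb1 at 2.28, 2.21 and 1.88. The Vcam1-led cluster held 50 of 91 C3 UMIs at 28 d and 12 of 42 without injury, 19 of 58 and 3 of 28 for Ctgf, 95 of 234 and 21 of 149 for Cyr61, 24 of 42 and 14 of 17 for Cxcl2, and 38 of 70 and 25 of 50 for Cxcl10. Of the NF-kB genes it held 35 of 78 Relb UMIs at 28 d and 8 of 65 without injury, 87 of 170 and 30 of 146 for Birc3, and 163 of 390 and 43 of 394 for Nfkb1. Il34 had 972 UMIs at 28 d and 755 without injury, a ratio of 2.44 (2.22 to 2.69), and PT-like nuclei held 47.2% of these at 28 d and 49.9% without injury. A pair of less known transcripts led the whole comparison. Gm26825, a long intergenic RNA on chromosome 5, had 99 UMIs at 28 d and 2 without injury, a ratio of 94.0 (25.3 to 787), with 1 UMI at 64 h and 0 at 96 h, and PT-like nuclei held 70 of the 99 at 28 d. Gm17268 had 217 UMIs at 28 d and 26 without injury, a ratio of 15.8 (10.5 to 24.8), and the Vcam1-led cluster, of which it is a leading gene, held 178 and 13 of them. Gm17268 lies on chromosome 11 at 82028224 to 82038562 on the minus strand, over Ccl2 at 82035571 to 82037453 on the plus strand, and whether the counting kept the strands apart is not given in the sources used here. The ion channel gene Kcnh8 and the carboxypeptidase N gene Cpn1 stood at 10.5 and 8.14. The Vcam1-led cluster held 62 of 94 Kcnh8 UMIs at 28 d and 0 of 17 without injury, and PT-like nuclei held 59 of 90 and 18 of 21 of those of Cpn1. The lowest were Akr1b3 at 0.0734, Kcnj2 and the urothelial surface gene Psca at 0.0999.

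**Figure D4:**
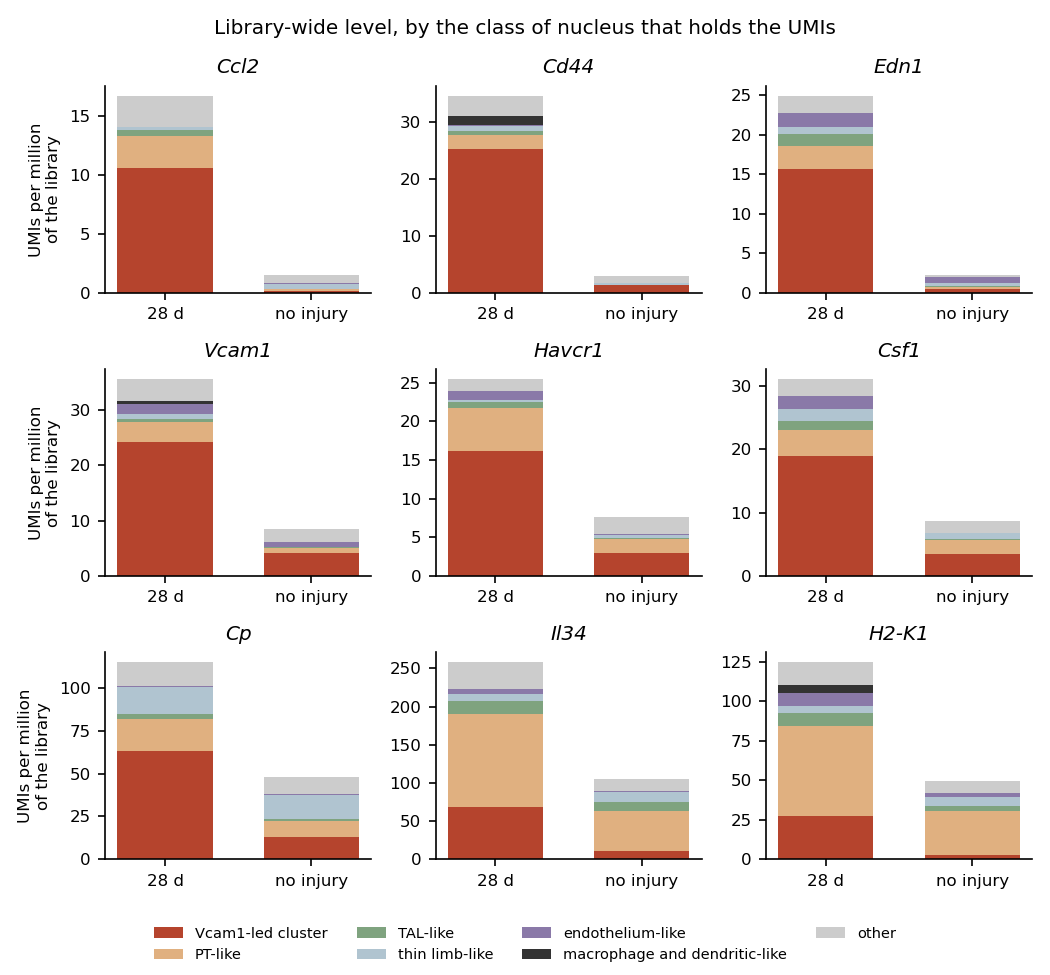
Library-wide level (CPM of the whole library, stacked bars) of 9 inflammatory and repair genes at 28 d and without injury, split by the class of nuclei that held the UMIs, 1 library a side. For Cd44 the Vcam1-led cluster holds 95 of 130 UMIs at 28 d and 9 of 21 without injury.

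Within the Vcam1-led cluster, compared between the libraries, 336 of 2189 measured genes were at least 1.5-fold higher at 28 d (15.3%) and 212 lower (9.68%). The median of all its genes was 0.03. The 6 parietal epithelium markers summed to 1769 CPM in it at 28 d and to 2036 CPM without injury. The 19 proximal tubule markers summed to 10461 and 13790 CPM. Failed repair, chemokine and NF-kB genes include leading genes of the cluster, so their medians within it are partly set by how its nuclei were grouped. Failed repair stood at 0.03, with 4 of 15 genes higher and 2 lower, chemokines at -0.11 over 5 genes and NF-kB at -0.28 over 7. Heat shock genes were higher here too, with a median of 0.75 and 5 of 10 higher and 0 lower, and iron genes lower, with a median of -1.05 and 2 of 3 lower. Fth1 had 322 CPM in this cluster at 28 d and 920 CPM without injury, a ratio of 0.350 (0.274 to 0.447). The genes with the lowest ratio were Prkg1, a cGMP-dependent kinase gene, with 31 UMIs at 28 d and 69 without injury, a ratio of 0.146 (0.0924 to 0.226), and RP24-362L9.2 at 0.295, and Ror1, a Wnt receptor gene, stood at 0.426. Beside Mid1, the highest were Gm17268 at 4.45 (2.54 to 8.52), Etl4 at 4.27 and Prickle2, a planar polarity gene, at 4.18.

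In TAL-like nuclei 2259 genes were measured, of which 294 were at least 1.5-fold higher at 28 d (13.0%) and 280 lower (12.4%). TMM scaling shifted them by -0.18 and gave 162 higher and 443 lower genes, 26.8% of the calls higher, against 51.2%. The thick limb takes up salt through the carrier NKCC2, encoded by Slc12a1, which drives urine concentration. The median of 20 measured thick limb transport genes was -0.54, with 9 of them 1.5-fold or more below the uninjured level and 1 above. Slc12a1 had 1597 UMIs or 7641 CPM at 28 d, against 5137 UMIs or 12779.6 CPM without injury, a ratio of 0.598 (0.565 to 0.633). The sodium-proton exchanger Slc9a3 stood at 0.410 (0.287 to 0.575), the prostaglandin receptor Ptger3 at 0.463, the tight junction gene Cldn10 at 0.493 and the kinase gene Wnk1, which regulates the carrier, at 0.593. Umod, uromodulin, the main urinary protein, had 2034 CPM at 28 d and 1473 CPM without injury, a ratio of 1.38 (1.22 to 1.57), and Egf 5230 and 7513 CPM, a ratio of 0.696.

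Much of this rested on the cluster led by Lcn2 and Clu, which held 187 TAL-like nuclei at 28 d and 17 without injury. Without it 1653 genes were measured, with 192 higher (11.6%) and 253 lower (15.3%). The ratio of Slc12a1 was then 0.893 (0.832 to 0.958), that of Umod 1.90 (1.63 to 2.22) and that of Egf 1.21 (1.12 to 1.31), and the thick limb transport median was -0.10. Several of the highest genes of the whole class rested on the cluster as well. Slc8a1, the sodium-calcium exchanger, had 228 UMIs at 28 d and 27 without injury, a ratio of 16.2 (10.9 to 25.2), and without the cluster 8 and 23 UMIs, a ratio of 1.65 (0.639 to 3.83). With segments taken from markers per nucleus the log2 ratio of Slc8a1 in TAL-like nuclei was -1.64, so its direction depends on which nuclei are counted as thick limb. Phactr1 stood at 9.21, and at 0.317 without the cluster, and the distal carrier gene Slc12a3 at 4.07, and at 0.745 without it. The markers of the connecting tubule summed to 1278 CPM in TAL-like nuclei at 28 d and 174 CPM without injury, with 5 of 5 markers higher. Slc8a1, a marker of that class, held 228 of the 267 UMIs of this sum at 28 d and 27 of the 70 without injury, so the sum mostly restates Slc8a1. Distal convoluted tubule markers summed to 1412 and 1271 CPM, with 4 of 5 higher, and those of the thick limb to 15919 and 23295 CPM. Clu had 225 CPM at 28 d and 27.4 CPM without injury, a ratio of 8.22 (4.20 to 17.6), and Spp1 828 and 346 CPM, a ratio of 2.39 (1.90 to 3.01), which was 0.649 without the cluster.

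Some thick limb genes differed with and without that cluster. Rgs7, a regulator of G protein signalling, had 5 UMIs at 28 d and 110 without injury, a ratio of 0.0874 (0.0278 to 0.210), and 2 and 110 UMIs without the cluster, a ratio of 0.0864. Ranbp3l, a nuclear export factor, had 35 and 459 UMIs, a ratio of 0.147 (0.101 to 0.207), and stood at 0.190 without the cluster. Filip1l was at 0.0986 and at 0.122 without it, Irs1, the insulin receptor substrate, at 0.222 and 0.365, and the scaffold gene Magi2 at 0.266 and 0.359. Of the higher genes Mid1, at 7.27, and the growth factor adaptor Grb14, at 2.74 and at 3.21 without the cluster, were of this kind. The remaining nuclei themselves came from different clusters, with 43 nuclei at 28 d and 186 without injury in that led by Sgcz and 52 and 128 in that led by Enox1 and Egf.

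**Figure D5:**
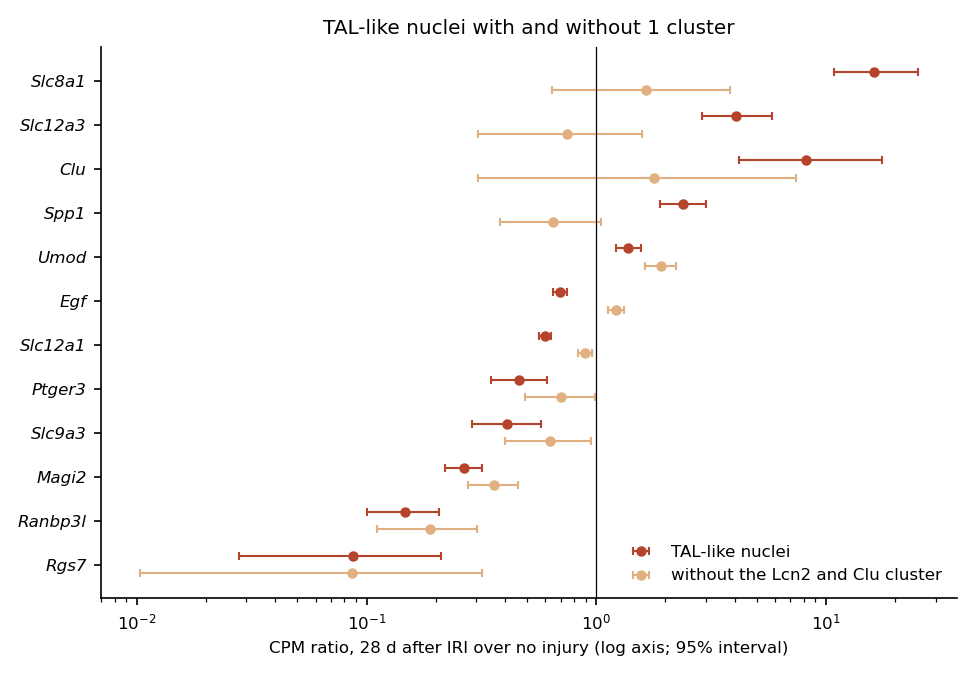
Ratio of 28 d over no injury (log scale) for thick limb genes in the whole TAL-like class and after leaving out its Lcn2 and Clu cluster, with exact 95% intervals. Slc12a1 is at 0.598 with the cluster and 0.893 without it, while Ranbp3l is at 0.147 and 0.190.

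Thin limb-like and distal nuclei were fewer. In thin limb-like nuclei 384 of 1989 measured genes were at least 1.5-fold higher (19.3%) and 240 lower (12.1%). Ranbp3l was low here too, with 17 UMIs at 28 d and 553 without injury, a ratio of 0.109 (0.0632 to 0.177). Akr1b3 had 1 UMI at 28 d and 206 without injury, a ratio of 0.0173 (0.000435 to 0.0972), Psca 0 and 128 UMIs, at least 12.0-fold lower when 3 counts are allowed for the 0 and a ratio of at most 0.104 by the interval, and the lipid flippase gene Atp10b 0 and 107 UMIs, at least 10.0-fold lower and a ratio of at most 0.125. Most UMIs of these 3 genes lay in 1 group of nuclei of the library without injury. When the 2 libraries were clustered alone, a cluster led by Psca, Atp10b, Akr1b3 and others held 0 nuclei at 28 d and 148 without injury, of which 146 were among the 287 thin limb-like nuclei without injury. Those 146 nuclei held 124 of the 128 Psca, 105 of the 107 Atp10b and 189 of the 206 Akr1b3 UMIs without injury. Outside that cluster, 134 thin limb-like nuclei at 28 d and 141 without injury remained, with 0 and 4 Psca UMIs and 0 and 2 Atp10b UMIs, too few to compare, and Akr1b3 had 1 and 17, a ratio of 0.108 (0.00259 to 0.690). Ranbp3l then had 17 and 200 UMIs, a ratio of 0.156 (0.0892 to 0.257). The adhesion gene Cdh13 stood at 3.36 (2.55 to 4.43) and the synaptic scaffold gene Shank2 at 3.30, and at 1.74 (1.32 to 2.29) and 1.95 (1.47 to 2.60) outside that cluster. In DCT and CNT-like nuclei 281 of 2376 genes were higher (11.8%) and 222 lower (9.34%). Beside Mid1 the highest were 4930556J24Rik at 4.31, Cyp4b1 at 2.83 and the protease inhibitor gene Spint2 at 2.74. Of these, 4930556J24Rik and Cyp4b1 were also higher in PT-like nuclei. The 19 proximal tubule markers summed to 14992 CPM in DCT and CNT-like nuclei at 28 d and to 13770 CPM without injury. In PT-like nuclei they summed to 28011 and 30460 CPM. The part of proximal tubule RNA in these ratios was not tested. Pde3b, a phosphodiesterase that breaks down cyclic AMP, had 12 UMIs at 28 d and 128 without injury, a ratio of 0.252 (0.127 to 0.455), Pappa, a protease that frees insulin-like growth factors, stood at 0.277 and Ranbp3l at 0.313. Pde3b and Pappa are both among the leading genes of the principal-like cluster, which held 2 nuclei at 28 d and 42 without injury, while the 7 principal cell markers summed to 769 CPM in DCT and CNT-like nuclei at 28 d and to 748 CPM without injury.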

How the data were processed

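Per the submitters' processing notes the authors used bcl2fastq 2.17, STAR 2.5.1b and Cell Ranger 2.1 on mm10, with a pre-mRNA reference, and deposited UMI counts of 27998 genes per barcode, 56 of whose symbols stand for more than 1 gene. How barcodes were called is not given in the sources used here. Barcodes with at least 200 genes were kept, and doublets were not removed. The 5 libraries were clustered together (scanpy 1.11.5, 2000 variable genes, 30 principal components, 15 neighbours, Leiden resolution 1.0, seed 0) and clusters were named from 17 marker classes with the suffix "-like". Counts were summed per library and class and divided by the total (CPM). Log2 ratios use a pseudocount of 1 CPM. Ratios carry exact conditional Poisson intervals, levels exact Poisson and shares exact Clopper-Pearson intervals, all at 95%. They cover counting error alone, as there was 1 library a group. Scripts ran in Python 3.11.15 and were tested on simulated data.

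Genes with at least 50 UMIs over both sums count as measured. Named genes have at least 100 UMIs and an interval wholly past 1.5-fold, 15 each way in PT-like nuclei, 8 each way in all nuclei and TAL-like nuclei and 4 in other segments, with up to 4 members of each of 47 gene lists and direction. The best known member of a list and the members that complete a list's count are also given, some of them named after their values were seen. The members and lists were chosen with earlier results of these data known, so they give no independent support. Alternatives covered TMM scaling (edgeR 4.0.16, factors only), limits on UMIs and genes, thinning to 600 UMIs, the clustering and the nuclei included. Gene positions come from GENCODE mouse release 21. A few of the genes this rule names are not reported here.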

Additional observations from a re-analysis of the deposited data

How the results depend on the processing

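Each group had 1 library, so no replicate could be left out. No paired analysis was possible because no test could be run with 1 library a group. The 28 d library was shallower (median 982 UMIs per nucleus, against 1793.5 without injury), and genes under 50 UMIs could not be read. Of counts of genes and shares of nuclei under an alternative, 73 stayed close to the value reported and 49 moved. Of list medians 1544 stayed, 128 moved and 2 reversed, and of named genes 1923, 236 and 12. Of shares of nuclei with a UMI, 7 stayed and 17 moved. The causes were not tested except where the setting itself removes genes or nuclei. Counts are given as higher and lower genes. With genes of at least 1 UMI they were 2593 and 1615 in all nuclei, 2643 and 1849 in PT-like and 4524 and 4162 in TAL-like nuclei. With at least 200 UMIs they were 596 and 359, 446 and 242, and 15 and 57. A pseudocount of 10 CPM gave 516 and 295 in all and 523 and 252 in PT-like nuclei. The S3-led cluster alone gave 374 and 327 and the S1-led clusters 674 higher, both chosen after seeing the data, as were the other settings that leave clusters out, in thin limb-like nuclei too, or hold the cluster mix. In TAL-like nuclei TMM scaling gave 162 and 443, thinning 109 and 158, resolution 0.5 480 higher, clusters of the 2 libraries alone 464 higher, and leaving out the Lcn2 and Clu cluster 192 higher. The failed repair median over all nuclei was -0.0011 without the Vcam1-led and the Lcn2 and Clu clusters and the macrophage and dendritic-like nuclei. In the S3-led cluster alone the log2 ratios of Tenm4, Pcdh17 and A330032B11Rik were 1.63, 0.29 and 0.26. In TAL-like nuclei Slc12a3 and Phactr1 were at -0.77 and -1.08 with clusters of the 2 libraries alone, and Slc12a3, Phactr1 and Slc8a1 at -0.60, -1.53 and -1.64 with segments from markers per nucleus. Without the Lcn2 and Clu cluster the tubule injury median was -0.65 and Sema3c, Spp1, Slc12a3 and Phactr1 were at -0.36, -0.62, -0.42 and -1.58. PT-like nuclei at 28 d were 67.8% with at least 400 genes, 61.5% at resolution 0.5, 62.2% at 2.0, 62.4% with clusters of the 2 libraries alone and 75.4% with markers per nucleus, and without injury 61.9% and 73.8% with the last 2 settings. TAL-like nuclei at 28 d were 6.20% with 400 genes, 10.3% and 7.40% at resolutions 0.5 and 2.0 and 6.55% with markers per nucleus, and without injury 12.7% at 0.5 and 12.4% with clusters of the 2 libraries alone. Thin limb-like nuclei at 28 d were 3.07% with 400 genes and 1.97% with markers per nucleus, and without injury 6.16% at 2.0 and 4.19% with markers. DCT and CNT-like nuclei at 28 d were 4.33% at 0.5, 4.49% at 2.0, 4.94% with clusters of the 2 libraries alone and 2.58% with markers, and without injury 7.30% and 3.25% with the last 2. The size of the cluster that held Vcam1 also depended on the clustering, as given where that cluster is introduced.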
